A study of Mus musculus with 12 samples.

Results

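Cathepsin E (Ctse) and its relatives among the aspartyl proteases were described in regulatory T cells (Tregs) of mice with or without the cytokine genes Ebi3 and Il10. The members were the probe sets annotated to 6 genes, Ctse, Ctsd, Napsa, Bace1, Bace2 and Ren1. Probe sets were found for 5 of the 6 genes, 14 of the 45037 on the array, and 8 of the 14 passed the filter for testing. Ctse was chosen by its measured signal on these same arrays, namely by its difference with the Il10 genotype. Its values in that comparison are therefore a description and carry no test. The other genes were selected on family membership, with earlier results of these data known.

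The study measured RNA on 12 Affymetrix mouse arrays. Each held mouse Tregs sorted by flow cytometry, and the cells were fresh and received no treatment. The 4 genotypes, with 3 arrays each, were wild type, Ebi3-/-, Il10-/- and Ebi3-/- Il10-/-. Il10 encodes IL-10, an inhibitory cytokine, and Ebi3 a chain that IL-35 shares with IL-27. Each of 3 labelled batches held 1 array of every genotype, and the replicate number is the batch number. No strain, age, sex, targeted allele or control treatment is named in the labels. The labels do not say whether the replicates are separate animals, so p-values measure only the spread between these samples.

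Aspartyl proteases cut proteins with a pair of catalytic aspartate residues, most of them best at acid pH, and many are made as inactive precursors that lose a propeptide. Cathepsin E sits in endosomes and other non-lysosomal compartments of stomach epithelium, red cell precursors, antigen-presenting cells and lymphocytes. Cathepsin D (Ctsd) is the main aspartyl protease of lysosomes, napsin A (Napsa) is known from lung and kidney, and the memapsins Bace1 and Bace2 are membrane-bound enzymes of the secretory and endosomal route. Renin (Ren1) is the kidney enzyme that starts the angiotensin cascade.

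The arrays carried a Treg profile. Foxp3, the transcription factor that defines Tregs, read signals of 4945.3 to 7955.0 on the 12 arrays, and all 9 Treg markers listed were measured. Signals are MAS5 signals, a linear scale on which the levels of different probe sets cannot be compared. The Ebi3 probe set separated the genotypes, at 1062.5 to 2057.3 with the gene intact and 3.0 to 72.5 without it. The Il10 probe set did not, at 184.5 to 2939.8 against 1016.7 to 2639.6, and with the allele unnamed it checks nothing about the label. Batch 3 stood apart: the summed signal of 10 myeloid markers was 31970.0 to 59102.4 there, against 5016.8 to 8487.4 in the other batches. The sum of the Treg markers was 45260.2 to 55610.5 in batch 3 and 65845.3 to 72822.5 in batches 1 and 2.

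Ctse was high wherever Il10 was lacking. On its brighter probe set, 1418989_at, the wild-type arrays of batches 1, 2 and 3 read 1211.3, 1483.9 and 1407.2. The Ebi3-/- arrays read 1035.3, 3159.3 and 1553.9. The 6 arrays with Il10 intact thus all lay between 1035.3 and 3159.3, and the highest was the Ebi3-/- array of batch 2.

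The Il10-/- arrays read 15418.1, 20750.1 and 18351.5 in the same order of batches. The Ebi3-/- Il10-/- arrays read 13939.1, 18621.9 and 19483.3. The 6 arrays lacking Il10 did not overlap the 6 with it, and the lowest of them was 4.41 times the highest array with Il10. Of all tested probe sets 0.128% had their 6 arrays lacking Il10 all above the 6 with it. Ctse was chosen for this pattern, so nothing is read from that share. The mean signal was 17760.7 ± 2572 (SD, n = 6) without Il10 and 1641.8 ± 767 (SD, n = 6) with it, a ratio of 10.8.

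By genotype, the mean signal was 1367.5 ± 141 (SD, n = 3) in wild type, 1916.2 ± 1107 in Ebi3-/-, 17348.1 ± 2984 in Ebi3-/- Il10-/- and 18173.2 ± 2670 in Il10-/-. The lower pair and the upper pair of that order each differed by less than the SD of one of their groups. The step in the order lay between the genotypes with and without Il10. The coefficient of variation was 46.7% over the arrays with Il10 and 14.5% over those without it. Arrays of sorted cells cannot tell more cells of a type from more RNA per cell.

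**Figure D1:**
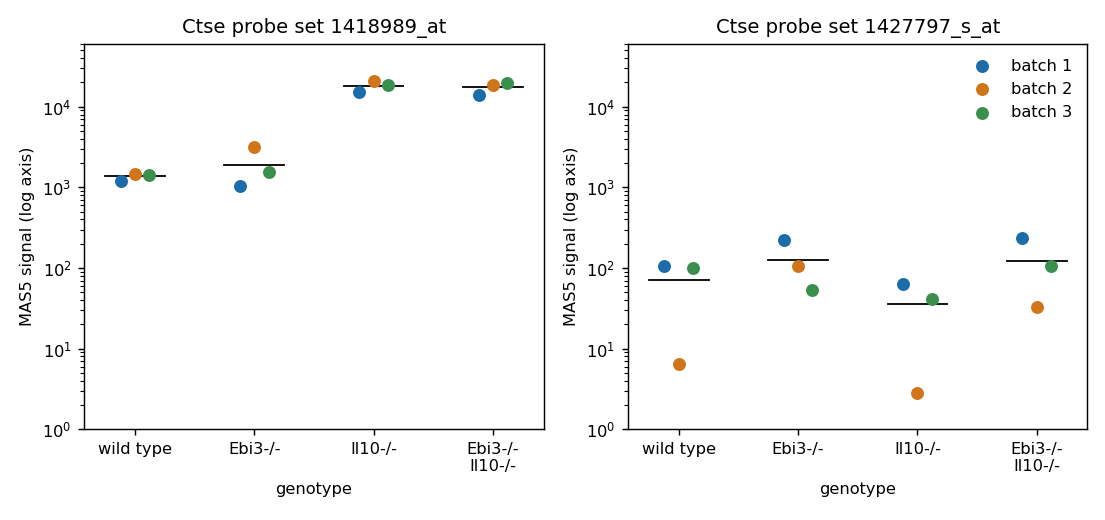
MAS5 signal (log axis) of the Ctse probe sets 1418989_at (left) and 1427797_s_at (right) by genotype, with 1 point per array coloured by batch and a line at the mean of each genotype (n = 3). On the left the 6 arrays lacking Il10 lie between 13939.1 and 20750.1, all above those with it; on the right the genotypes overlap.

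The difference was present in each batch. Within a batch, Il10-/- exceeded wild type by 3.65, 3.79 and 3.69 on the scale of log2(signal + 20) in batches 1, 2 and 3. The corresponding signal ratios were 12.7, 14.0 and 13.0. Where Ebi3 was also lacking, Ebi3-/- Il10-/- exceeded Ebi3-/- by 3.73, 2.55 and 3.63, with signal ratios of 13.5, 5.89 and 12.5. Of the 6 comparisons 5 lay between 3.63 and 3.79, and the remaining one was that of batch 2 with Ebi3 lacking. The mean was 3.51 with an SD of 0.47. Of all tested probe sets 2.5% were higher without Il10 in all 6 comparisons.

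The low value in batch 2 went with the Ebi3-/- array of that batch. This array was singled out after its values were seen. Its Ctse signal of 3159.3 stood against 1338.3 ± 212 (SD, n = 5) for the other arrays with Il10, and it lay 11.1% of the way from their mean to the mean of the arrays lacking Il10. Ap1s3, a small subunit of the AP-1 clathrin adaptor, read 248.0 on this array against 142.0 ± 33.8 on the other 5, 7.11% of the way. Of the other probe sets most like Ctse, 3 were also highest on this array among the 6 with Il10 and lay farther along, Tmem176a 1441811_x_at at 56.1% of the way, Ramp1 1417481_at at 53.6% and Ramp1 1431413_at at 37.6%. The other Tmem176a probe set, 1423909_at, lay at 2.79%. Ap1s3, Tmem176a and Ramp1 were ranked by their likeness to Ctse over all 12 arrays, this array included. Nothing is therefore read from their values on it. Thap4, which was lower without Il10, read 2567.4 there, above the other 5 arrays with Il10 (at most 2133.8) and so farther from the arrays lacking it. D2hgdh, also lower without Il10, read 1934.2 on this array, within the range of the other 5 (1782.6 to 2646.1). It lay 16.0% of the way to the arrays lacking Il10. Without this array the log2 difference of Ctse where Ebi3 was lacking was 3.74, against 3.30 with it, and the average over both Ebi3 genotypes was 3.72, against 3.51.

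Over all batches, the summed signals of markers of other cell types overlapped between the Il10 genotypes. The summed signal of 7 dendritic cell markers was 371.1 to 1579.4 with Il10 and 563.0 to 2571.1 without it. For 10 myeloid markers it was 5016.8 to 37991.8 and 5163.9 to 59102.4, for 8 B cell markers 1324.8 to 6639.1 and 960.7 to 9035.6, and for 5 erythroid markers 89.3 to 460.9 and 175.0 to 638.7. No probe set of these lists passed the test by Il10 genotype, although all 9 myeloid genes tested and 6 of the 7 dendritic cell genes had estimates above 0 (medians 0.34 and 0.33 on the log2 scale). Of all 13878 genes tested 51.5% had estimates above 0.

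Within each batch, the arrays lacking Il10 had the higher sums of markers of CD8 T cells and NK cells. The summed signal of 9 such markers was 2927.7 in Il10-/- and 2429.2 in Ebi3-/- Il10-/- in batch 1, against 2298.4 in wild type and 2289.3 in Ebi3-/-. In batch 2 it was 2545.4 and 2874.2 against 1965.4 and 1931.3, and in batch 3 it was 9694.2 and 9759.9 against 7765.2 and 4816.6. Both arrays lacking Il10 thus exceeded both arrays with it in 3 of 3 batches, as they did in 2 of 3 for the dendritic cell sum, 1 of 3 for the myeloid sum and 0 of 3 for the B cell and erythroid sums. For the B cell sum both lay below both arrays with Il10 in 1 of 3 batches. No share over all probe sets was computed for these orders within batches, and nothing is read from the counts.

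Of the 9 CD8 T and NK genes 8 had estimates above 0, with a median of 0.38, against 51.5% of all 13878 genes tested. Of their 15 probe sets 0 passed with or without batch in the model. The NK receptor gene Klrk1 differed by 1.00 ± 0.429 (SE, limma, adjusted p = 1, or 0.181 with batch in the model). The granzyme gene Gzma, of cytotoxic cells, differed by 0.77 ± 0.768 (adjusted p = 1, or 0.402 with batch). Both were singled out after their values were seen. With Ebi3 intact the Ctse difference was 3.65 in batch 1 and 3.69 in batch 3, while the myeloid sum was at most 7707.7 in batch 1 and at least 31970.0 in batch 3, and the CD8 T and NK sum at most 2927.7 and at least 4816.6. The part of other cells in the Ctse signal was not tested.

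The other Ctse probe set did not show the difference. 1427797_s_at carries the manufacturer's suffix for probes that can also match other transcripts. It read 104.6, 6.5 and 99.7 in wild type and 222.7, 105.0 and 53.6 in Ebi3-/- in batches 1, 2 and 3. It read 62.7, 2.8 and 41.0 in Il10-/- and 232.8, 32.5 and 104.5 in Ebi3-/- Il10-/-. The genotypes overlapped, with means of 98.7 ± 72.1 (SD, n = 6) with Il10 and 79.4 ± 82.4 (SD, n = 6) without it.

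Its batch-wise differences by Il10 genotype on the log2 scale were -0.59, -0.22 and -0.97 with Ebi3 intact, and 0.06, -1.25 and 0.76 with Ebi3 lacking. It was thus higher without Il10 in 2 comparisons and lower in 4, where 1418989_at was higher in all 6. The mean was -0.37 with an SD of 0.73, against 3.51 for 1418989_at. Its rank among all probe sets of an array ranged from the 4.1 to the 64.5 percentile, and it reached the 40th percentile, the level used for testing, on 9 of 12 arrays. The rank of 1418989_at was between the 84.6 and the 99.5 percentile.

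The Ebi3 genotype was a comparison that the choice of Ctse did not use. On 1418989_at the arrays lacking Ebi3 differed from those with it by 0.13 ± 0.227 on the log2 scale (SE, limma, adjusted p = 1; 95% interval -0.36 to 0.62). Within batches the differences were -0.22, 1.08 and 0.14 with Il10 intact and -0.15, -0.16 and 0.09 with Il10 lacking, so 3 of 6 were above 0. Without the Ebi3-/- array of batch 2 the estimate was -0.09. The interaction, which asks whether the difference by Il10 depends on Ebi3, was -0.40 ± 0.455 (adjusted p = 1; 95% interval -1.39 to 0.58), and 0.03 without that array. With batch in the model the interval of the interaction was -1.04 to 0.23.

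On 1427797_s_at the arrays lacking Ebi3 were higher in 5 of 6 batch-wise comparisons, by 0.96, 2.24 and -0.70 with Il10 intact and 1.61, 1.20 and 1.03 without it. The average difference of 1.06 ± 0.529 did not pass (adjusted p = 1, or 0.922 with batch in the model). Over the members, 0 of 8 tested probe sets were called by Ebi3 genotype, against 0.0032% of all tested probe sets, which was the Ebi3 probe set alone. With batch in the model it was also 0 of 8, against 0.0064%. At an unadjusted p under 0.05 limma gave 431 probe sets, or 1419 with batch in the model. For the interaction 0 of 8 members and 0 of all probe sets were called, with 400 at an unadjusted p under 0.05.

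The relatives of Ctse did not share its pattern. By average Il10 genotype 1 of the 8 tested member probe sets passed, Ctse 1418989_at itself, against 0.0128% of all tested probe sets, and nothing is read from that count. With batch in the model the same probe set was again the only member called, against 0.064% of all tested probe sets. The other 6 that belong to Ctsd, Napsa and Bace1 had log2 estimates between -0.06 and 0.28, each with an adjusted p of 1 in limma. Over all 13878 genes tested, the median was 0.007.

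**Figure D2:**
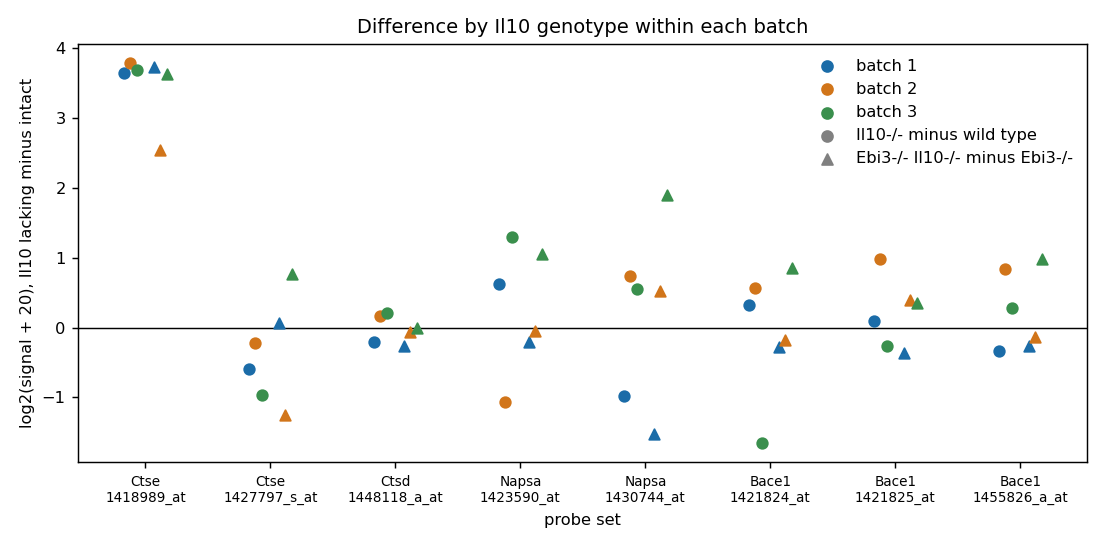
Difference in log2(signal + 20) between arrays lacking Il10 and arrays with it, within each batch, for the 8 tested member probe sets. Circles compare Il10-/- with wild type and triangles Ebi3-/- Il10-/- with Ebi3-/-; Ctse 1418989_at lies between 2.55 and 3.79, while points of the other probe sets fall on both sides of 0.

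Ctsd, the lysosomal counterpart, was present on every array. Its probe set 1448118_a_at read 3670.1, 1969.8 and 3788.4 in wild type and 3072.5, 2046.1 and 3328.4 in Ebi3-/- in batches 1, 2 and 3. It read 3190.4, 2212.5 and 4383.8 in Il10-/- and 2548.9, 1944.0 and 3309.8 in Ebi3-/- Il10-/-. The genotypes overlapped, and in each genotype the lowest array was that of batch 2.

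By Il10 genotype Ctsd differed by -0.03 ± 0.233 on the log2 scale (SE, limma, adjusted p = 1; 95% interval -0.54 to 0.48). With batch in the model the interval narrowed to -0.24 to 0.18. By Ebi3 genotype the difference was -0.22 ± 0.233 (adjusted p = 1, or 0.994 with batch in the model). With batch its 95% interval was -0.42 to -0.01 (limma, unadjusted p = 0.0428). Within batches the differences by Ebi3 were -0.25, 0.05 and -0.19 with Il10 intact and -0.32, -0.18 and -0.40 with Il10 lacking. The batch-wise differences by Il10 were -0.20, 0.17 and 0.21 with Ebi3 intact and -0.27, -0.07 and -0.01 without it.

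Napsa was variable. Its probe set 1423590_at read 261.5, 302.4 and 680.7 in wild type and 398.6, 198.8 and 536.1 in Ebi3-/-. It read 411.4, 134.1 and 1701.0 in Il10-/- and 343.5, 191.3 and 1140.2 in Ebi3-/- Il10-/-. The 4 arrays of batch 3 were the highest, and within that batch both arrays lacking Il10 were above both arrays with it.

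By Il10 genotype Napsa differed by 0.28 ± 0.568 (SE, limma, adjusted p = 1; 95% interval -0.96 to 1.51). The batch-wise differences were 0.62, -1.06 and 1.30 with Ebi3 intact and -0.20, -0.05 and 1.06 without it, so the sign was the same in both Ebi3 genotypes in batches 2 and 3 and opposite between those batches. The order of the batch 3 arrays was also that of the myeloid sums, 59102.4 in Il10-/-, 56846.4 in Ebi3-/- Il10-/-, 37991.8 in wild type and 31970.0 in Ebi3-/-. In the other batches the orders differed. In batch 1 the myeloid sum was lowest in Ebi3-/- (5016.8) and Napsa in wild type (261.5). In batch 2 the sum was highest in Ebi3-/- Il10-/- (8487.4) and Napsa in wild type (302.4). The part of myeloid cells in the Napsa signal was not tested. The other Napsa probe set, 1430744_at, ranged from 2.1 to 108.1, reached the 40th percentile on 5 of 12 arrays and differed by 0.20 ± 0.49 (adjusted p = 1).

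Bace1, the protease that starts the cleavage of the amyloid precursor protein, was low. Its probe set 1455826_a_at read 198.4, 93.4 and 160.4 in wild type and 165.1, 185.1 and 134.4 in Ebi3-/-. It read 153.2, 182.5 and 199.6 in Il10-/- and 133.9, 166.6 and 285.0 in Ebi3-/- Il10-/-. The genotypes overlapped, and the difference by Il10 genotype was 0.23 ± 0.238 (SE, limma, adjusted p = 1; 95% interval -0.29 to 0.74).

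The other tested Bace1 probe sets, 1421824_at (21.2 to 125.9) and 1421825_at (27.6 to 73.6), differed by -0.06 ± 0.339 and 0.20 ± 0.235, each with an adjusted p of 1. By Ebi3 genotype the 3 Bace1 estimates were 0.10, 0.31 and -0.09, also at an adjusted p of 1. The remaining Bace1 probe set, 1450384_at, ranged from 7.3 to 68.4 and was not tested.

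Bace2, the close homologue of Bace1, had 5 probe sets and none was tested. Their highest signal was 77.9, and no Bace2 probe set reached the 40th percentile of the array on more than 2 arrays. The probe set 1435581_at, chosen here after its values were seen, ranged from 7.5 to 47.5 with Il10 and from 1.1 to 19.9 without it, and was lower without Il10 in 6 of 6 batch-wise comparisons (mean -0.71). Of the tested probe sets 2.37% were lower in all 6. In the fit without a filter its difference was -0.71 ± 0.239 (adjusted p = 1), and the groups overlapped. Ren1 had no probe set in the annotation used here, so it has no value.

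**Figure D3:**
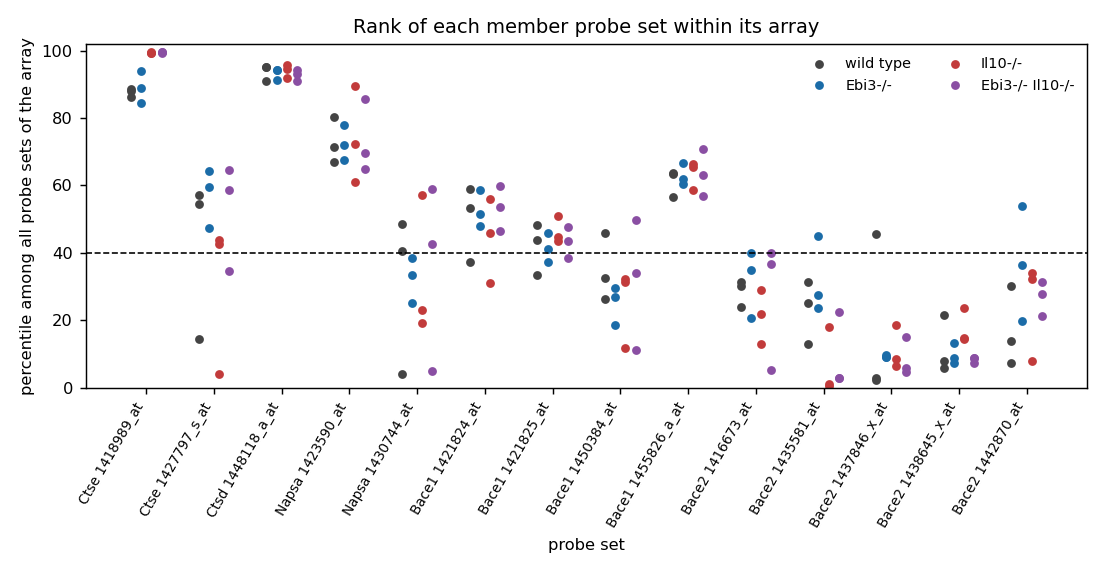
Rank of each member probe set among all probe sets of its array, in percentiles, with 1 point per array coloured by genotype and a dashed line at the 40th percentile used as the filter. The 5 Bace2 probe sets and Bace1 1450384_at reach the line on 2 arrays at most; ranks place a probe set within its array and do not compare levels between genes.

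Batch was the larger source of variation for Ctsd and Napsa. With genotype in the model, 4 of the 8 tested member probe sets differed between batches (limma F test, adjusted p under 0.05), and so did 41.8% of all tested probe sets, so the count is near the background. For Ctsd the mean signal was 3120.5 ± 460 (SD, n = 4) in batch 1, 2043.1 ± 121 in batch 2 and 3702.6 ± 505 in batch 3 (adjusted p = 0.000322). The 4 arrays of batch 2 lay below the other 8, which 5.29% of tested probe sets did.

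Napsa 1423590_at averaged 353.7 ± 68.2 (SD, n = 4) in batch 1, 206.7 ± 70.1 in batch 2 and 1014.5 ± 525 in batch 3 (adjusted p = 0.000584). Its batch 3 arrays lay above the other 8, as did those of 4.15% of tested probe sets. Ctse 1418989_at was higher in batch 2 than in batch 1 by 0.68 ± 0.18 on the log2 scale and in batch 3 by 0.38 (adjusted p = 0.0227). That call was lost without the Ebi3-/- array (adjusted p = 0.0917) or the Ebi3-/- Il10-/- array (adjusted p = 0.0507) of batch 1. Ctse 1427797_s_at went the other way, by -1.83 ± 0.378 in batch 2 and -0.81 in batch 3 (adjusted p = 0.00532). The second Napsa probe set and the 3 of Bace1 did not pass (adjusted p from 0.241 to 0.647).

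**Figure D4:**
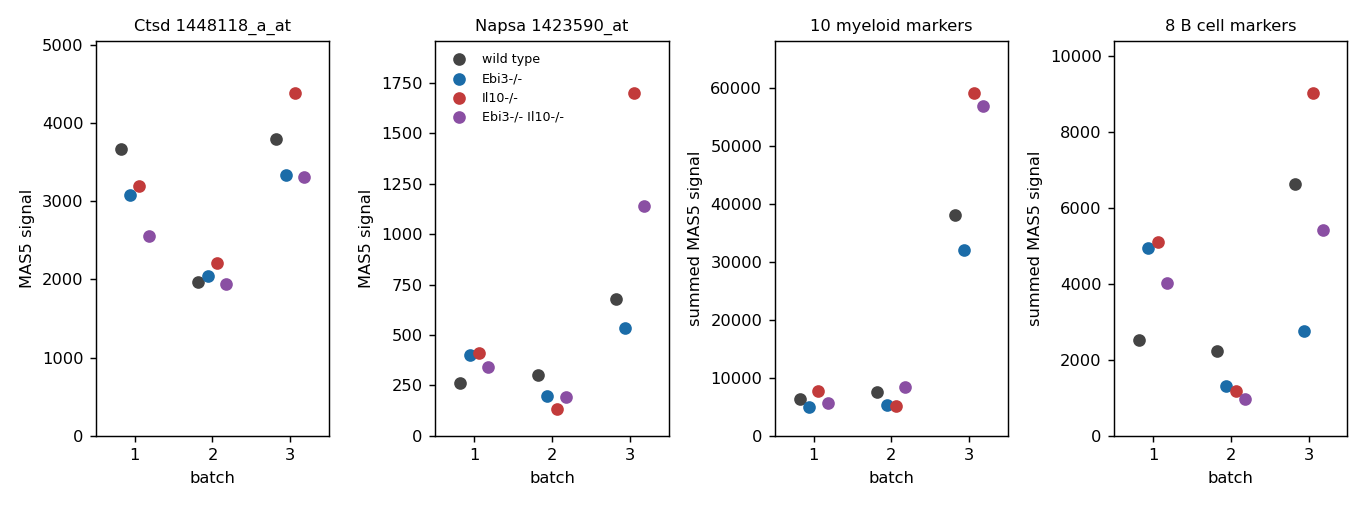
MAS5 signal of Ctsd and Napsa 1423590_at, and the summed signal of 10 myeloid and 8 B cell markers, by batch, with 1 point per array coloured by genotype. Ctsd is lowest in batch 2, and Napsa and the myeloid sum are highest in batch 3.

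No gene of the wider protease pathways passed the test by Il10 or Ebi3 genotype, with or without batch in the model. Over all 13878 genes tested, 51.5% of the estimates by Il10 were above 0. Of 16 other aspartyl proteases 12 were measured and 11 tested, with 8 estimates by Il10 above 0 and 3 below, and a median of 0.03. Among them were Psen2, a catalytic subunit of gamma-secretase (-0.03 ± 0.139), and the signal peptide peptidases H13 (-0.04 ± 0.314) and Sppl2a (0.00 ± 0.171). The highest estimates of the list, named after their values were seen, were 1.42 ± 0.672 for Nrip2 and 0.64 ± 0.363 for Asprv1, a protease of skin. With batch in the model their adjusted p-values were 0.48 and 0.512 (unadjusted 0.0122 and 0.0196). Of the gamma-secretase partners 4 of 5 were tested (3 above 0, 1 below, median 0.23), and Ncstn, the substrate-binding subunit, read -0.50 ± 0.391. The highest estimate of these, named after its value was seen, was 0.66 ± 0.192 for Aph1a. With batch in the model its adjusted p was 0.181 (unadjusted 0.000382, limma).

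Of 12 known substrates of Bace enzymes 9 were tested, 7 above 0 and 2 below, with a median of 0.28. App, the amyloid precursor, differed by 0.41 ± 0.669, its homologue Aplp2 by 0.42 ± 0.199, and Selplg, the P-selectin ligand of leukocytes, by 0.10 ± 0.15. In the renin system 4 of 9 genes were tested, 1 above 0 and 3 below, with a median of -0.05. Ace, the angiotensin-converting enzyme, read -0.02 ± 1.02 and Atp6ap2, the prorenin receptor, 0.04 ± 0.187, while Agt, which encodes the renin substrate, was not tested. These and the following values are log2 differences with their SE, each at an adjusted p of 1 in limma.

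The genes that deliver and accompany proteases in lysosomes gave estimates on both sides of 0. Of 13 delivery genes, all tested, 6 lay above 0 and 7 below, with a median of -0.01. The mannose 6-phosphate receptors M6pr and Igf2r read 0.12 ± 0.283 and -0.47 ± 0.182, and the sorting receptor Sort1 0.19 ± 0.54. Of 25 lysosomal hydrolases and membrane proteins 22 were tested, 17 above 0 and 5 below, with a median of 0.08. The cysteine proteases Ctsb, Ctss and Ctsl read 0.11 ± 0.207, 0.11 ± 0.154 and 0.47 ± 0.256, the legumain gene Lgmn -0.03 ± 0.424, and the saposin precursor Psap 0.09 ± 0.346.

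In the list of antigen processing in endosomes 9 of 10 genes were tested, 8 above 0 and 1 below, with a median of 0.36. Cd74, the invariant chain that cathepsins trim, read 0.54 ± 0.499. This list holds class II genes of B cells and myeloid cells. The myeloid sum was highest in batch 3 and, within that batch, in the arrays lacking Il10. The B cell sums overlapped between batch 1 (2519.5 to 5115.6) and batch 3 (2765.3 to 9035.6). The part of these cells in the estimates was not tested.

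By batch, 41.8% of all tested probe sets passed. The count was 9 of 20 probe sets for the other aspartyl proteases, 2 of 8 for the gamma-secretase partners, 7 of 20 for the Bace substrates, 4 of 7 for the renin system and 12 of 25 for the delivery genes. Nothing is read from these counts, which lie around the background. The genes with a probe set that passed were H13, Pgc, Asprv1, Sppl2a and Sppl3 in the first list, Ncstn and Psenen in the next, and App, Aplp1, St6gal1, Il1r2, Selplg and Sez6 among the Bace substrates. They were Ace and Atp6ap2 in the renin system, and Vps35, Vps26a, Vps29, M6pr, Igf2r, Sort1, Gga1, Gga2 and Gnptg among the delivery genes.

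Of the lysosomal probe sets 32 of 46 passed by batch, and of the antigen processing probe sets 15 of 16. The lysosomal ones belonged to 18 of 22 genes, Ctsa, Ctsb, Ctsc, Ctsh, Ctsl, Ctso, Ctss, Ctsz, Lgmn, Gaa, Gusb, Hexa, Grn, Psap, Tpp1, Scarb2, Lamp2 and Lipa. The others belonged to all 9 antigen processing genes tested, Cd74, Ciita, H2-Aa, H2-Ab1, H2-DMa, H2-Eb1, H2-Oa, H2-Ob and Ifi30. On the brightest probe set of each gene, batch 3 exceeded batch 1 by 3.28 for Ace, 2.63 for App, 2.58 for the cysteine protease Ctsh, 2.11 for Sort1, 1.46 for Cd74 and 0.91 for Psap. Other tested probe sets differed less, by -0.04 for Ace, 1.28 for App, 2.04 for Ctsh, 0.37 for Sort1 and 0.48 for Psap. These are genes that were higher in batch 3. Other genes that passed by batch were lower there than in batch 1 on their brightest probe set. Among them were Ncstn (-1.29), Pgc (-1.19), Gga1 (-0.58), Psenen (-0.46), Tpp1 (-0.36) and H13 (-0.35). The myeloid sum was highest in batch 3, and its part in any of these values was not tested.

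The tested probe sets most like Ctse 1418989_at over the 12 arrays belonged to Ap1s3 (Pearson r = 0.985), Tmem176a (0.947 and 0.92) and Ramp1 (0.93 and 0.919), of 25406 gene-named probe sets ranked. After each batch mean was removed the leading 5 were Ap1s3 (0.986), Ramp1 (0.977), Tmem176a (0.962), Tmem37 (0.961) and Stom (0.961). These values describe 12 arrays that fall into groups with and without Il10 and share their batches. Ap1s3 read 85.6 to 248.0 with Il10 and 1324.1 to 1841.6 without it, a log2 difference of 3.24. Ramp1 1417481_at, a receptor activity-modifying protein, read 2154.5 to 3801.8 and 3839.1 to 5730.5, a difference of 0.81. Among the members, the likeness to Ctse 1418989_at was -0.235 for the other Ctse probe set, -0.125 for Ctsd, 0.097 and 0.131 for Napsa, and -0.064 to 0.386 for Bace1.

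Ctse, Il10 and Ren1 lie on chromosome 1 (order of genes from the mouse reference GRCm38.p6), with 8 protein-coding genes between Il10 and Ctse and 26 between Ctse and Ren1. Of the 37 genes from Il10 to Ren1, 26 had a tested probe set, 51 probe sets in all. Ctse 1418989_at was chosen for its Il10 difference, so its own value of 3.51 is a description. Of the other 50, 0 were called by Il10 genotype (limma, with or without batch in the model), with 2 at an unadjusted p under 0.05, or 6 with batch. All 50 overlapped between the Il10 genotypes and lay within 1 log2 unit of 0, with 32 of them above 0. Of all 31235 tested probe sets 0.0128% were called, or 0.064% with batch. An unadjusted p under 0.05 in limma was reached by 694 of them, or 2691 with batch. The 6 arrays lacking Il10 were all above the 6 with it for 0.128%. With calls and separation this rare, nothing is read from their absence among the 50. The tested genes nearest to Ctse were Fam72a (0.41 ± 0.217) and Rab7b, a small GTPase of late endosomes (-0.54 ± 0.324), and Il10 itself read 0.91 ± 0.568, each with an adjusted p of 1. Outside this stretch, the other probe sets called for the average by Il10 without batch also lay on chromosome 1 (Ap1s3, D2hgdh and Thap4). With batch in the model, chromosome 1 also held called probe sets of Bcl2, Gin1, Kdm5b, Mcm6, Ramp1 and Stk25. Those of Il17re and Tmem176a lay on chromosome 6 and that of Ccl5 on chromosome 11, and others had no gene name. The part of position in the Ctse difference was not tested.

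**Figure D5:**
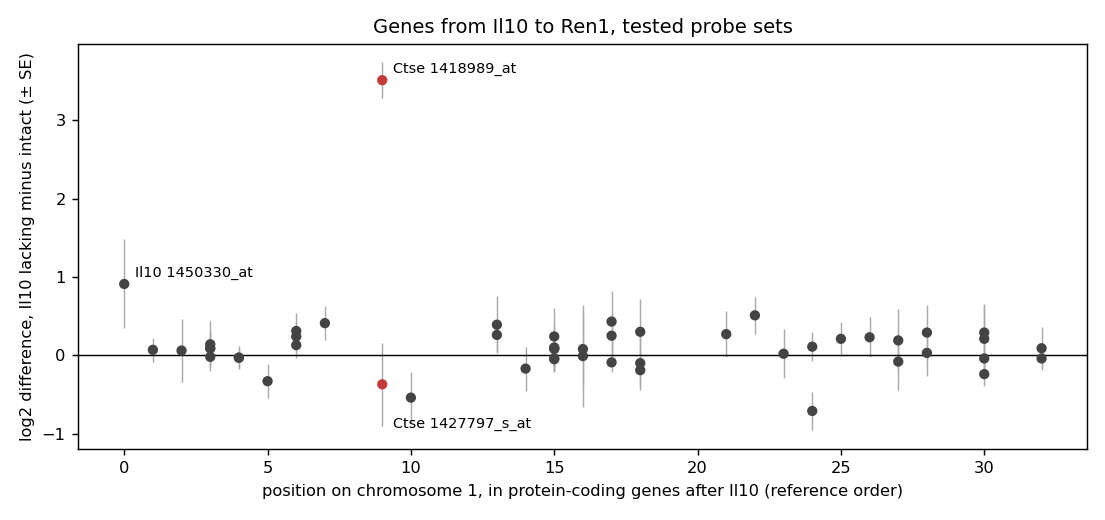
Log2 difference (± SE) between arrays lacking Il10 and arrays with it for the 51 tested probe sets of genes from Il10 to Ren1, by their order on chromosome 1 counted in protein-coding genes after Il10. Ctse 1418989_at stands at 3.51 and the other 50 lie within 1 log2 unit of 0.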

How the data were processed

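As deposited, each value is a natural log of a signal to which 20 had been added, a scale worked out from the numbers because the authors do not state it. MAS5 and Partek 6.4 are the tools named in the submitters' processing notes. The trimmed mean signal was 500 on average (2% trimmed from each end), so the arrays had been scaled, and array medians were 59.3 to 89.1. The number of arrays limits the precision. Values were converted to log2(signal + 20), which understates the change of low genes, with no further normalization. Of 45101 probe sets, 64 controls were left out. The 34945 with 1 gene symbol in the platform annotation were named (34741 matched to RefSeq, GRCm38.p6); 932 had several symbols and 9160 none. Testing was limited to probe sets at or above the 40th percentile of an array (signal 35.5 to 52.8) on at least 3 arrays.

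With limma 3.58.1 (R 4.3.3), 1 linear model covered all 4 genotypes without batch (eBayes with trend, 8 residual degrees of freedom), and p-values were adjusted by Benjamini-Hochberg over the 31235 tested probe sets (threshold 0.05). Batch was tested with an F test beside genotype. The labels call the replicate number a batch, so numbers pair the samples; same-numbered arrays correlated at 0.325 to 0.664 after genotype means were removed, and others at -0.531 to -0.0204. The fit with batch as a factor was an alternative. On simulated data for the average Il10 difference over 31235 probe sets, the fit without batch recovered 29% of log2 changes of 1 and 79% of 2 (0 false calls), and the fit with batch 81% and 99% (8 false calls). Recovery was not tested for probe sets of low signal, which include some members. The percentages above are not to be read for those probe sets. The other alternatives were other filters, quantile normalization, an added constant of 50, eBayes without trend and leaving out each array.

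Members and gene lists were chosen with earlier results of these data known. For list estimates and marker sums, the brightest probe set stood for a gene. Named genes were all members, a fixed set of list genes, list genes past the threshold in any comparison, and the 5 probe sets most like Ctse. Fam72a, Rab7b, Thap4, D2hgdh, Aph1a, Nrip2, Asprv1, Klrk1 and Gzma were added after their values were seen. So were the other genes called by Il10 genotype.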

Additional observations from a re-analysis of the deposited data

Results flagged for a closer look

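The Ctse signal of 3159.3 on the Ebi3-/- array of batch 2 stood apart from the other 5 arrays with Il10, which read 1035.3 to 1553.9 on 1418989_at. Its gap to the nearest of them was 0.756 of the range of the 6 arrays, above the 95% critical value of Dixon's test for 6 samples. The gap was taken on the linear signal and not on the log2 scale of the fits, on which it is smaller. It was the only such array in 40 groups examined, made up of the 8 tested member probe sets in the arrays with Il10, the arrays lacking it and each of the 3 batches. Chance alone passes that value in about 1 group in 20.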

How the results depend on the processing

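The replicate block (batch in the model) raised the probe sets called from 2 to 12 in Il10-/- against wild type, from 2 to 6 in Ebi3-/- Il10-/- against Ebi3-/-, from 4 to 20 for the average by Il10 and from 1 to 2 for the average by Ebi3; it changed no call of a member. Leaving out 1 array gave 2 to 3 calls for the average by Il10 and 1 to 12 for the average by Ebi3 (12 without Ebi3-/- replicate 3, 2 without Ebi3-/- replicate 2); the average by Il10 had 2 without any of WT 1, WT 2, Ebi3-/- 3, Il10-/- 1, 2 or 3, and Ebi3-/- Il10-/- 1 or 2. With the replicate block as well, an alternative chosen after seeing the data, the ranges were 2 to 7, 4 to 7, 12 to 33 (33 without WT 1, 20 without Ebi3-/- 1, 18 without Ebi3-/- 2, 17 without Il10-/- 2, 16 without WT 2 or Ebi3-/- Il10-/- 1 or 2, 15 without Il10-/- 3 or Ebi3-/- Il10-/- 3 and 12 without any of the others), 1 to 32 and, for the interaction, 0 to 1. Ctse 1418989_at by Il10 ranged from 3.32 to 3.72 without 1 array. Its batch call was lost with quantile normalization (adjusted p = 0.0579). Signs of estimates near 0 turned when 1 array was left out: Ctse 1418989_at by Ebi3 (-0.09 to 0.31) and in the interaction (-0.77 to 0.03), Ctse 1427797_s_at in the interaction (-0.10 to 1.18) and by Il10 where Ebi3 was lacking (-0.69 to 0.44), Ctsd by Il10 (-0.18 to 0.10), Napsa 1423590_at by Il10 (-0.18 to 0.69) and Ebi3 (-0.53 to 0.34), Napsa 1430744_at by Il10 (-0.09 to 0.53) and Ebi3 (-0.24 to 0.38), Bace1 1421824_at by Il10 (-0.29 to 0.16) and Bace1 1455826_a_at by Ebi3 (-0.05 to 0.20). By Il10 the same held for Psen2 (-0.10 to 0.05), H13 (-0.23 to 0.15), Sppl2a (-0.08 to 0.10), App (-0.07 to 0.80), Selplg (-0.01 to 0.18), Ace (-0.74 to 0.55, and 0.01 with an added constant of 50), Atp6ap2 (-0.07 to 0.13), M6pr (-0.07 to 0.30), Sort1 (-0.11 to 0.51), Ctsb (-0.02 to 0.22), Lgmn (-0.43 to 0.25) and Psap (-0.13 to 0.30). Of the 5 entries most like Ctse, 3 stayed in the list after batch means were removed. The causes were not tested.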
